A study of Rattus norvegicus with 12 samples.

Results

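Rat liver at 48 hours after partial hepatectomy was compared with sham-operated liver for every piRNA name that small RNA sequencing listed in either group. The comparison used 2 libraries at 48h and 6 libraries of sham-operated liver, which the labels call pre_PH, of 12 libraries in the series. A name listed in any of these 8 libraries was included, and a library that did not list it counted 0 reads, which gave 648 of the 701 names in the series. All libraries came from liver of the inbred rat strain Fischer-344 (F-344). The pre_PH group is normal liver after a sham operation, labelled as control with no number of hours. The 48h group is regenerating liver, 48 hours after surgeons' removal of a portion of the organ (partial hepatectomy). The remaining 4 libraries, at 24h and 168h after the same operation, entered the statistical fit so that all groups shared its estimate of spread. Both groups are whole tissue, and the labels do not say whether libraries came from separate or pooled animals. The p-values therefore reflect the spread among libraries, and that spread may be technical. The tables held piRNAs alone, so the tissue was not checked against marker genes. Names with near-identical sequences may share or split reads, and values of single names are to be read with that limit.

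Partial hepatectomy sets off regrowth of the liver from its remnant, in which hepatocytes re-enter the cell cycle and the other cell types of the liver follow. piRNAs are small RNAs that guide PIWI proteins, and they are best known for silencing transposons in the germ line. Names of piRNAs are also assigned to small RNA reads of other tissues, liver among them. The roles of the single names described here are not known with certainty, so they are ordered by direction of change and by abundance in sham-operated liver.

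At 48h the liver libraries held more kinds of piRNA, and fewer of their reads belonged to the leading few, while the total amount of piRNA reads lay within the sham range. Reads of piRNAs made up 0.583% and 0.800% of all library reads at 48h, and 0.478 to 1.25% in pre_PH (median 0.586%). Library totals were 20741811 and 31467460 reads at 48h and 23555129 to 28797822 in pre_PH, and listed piRNA reads were 120844 and 251665 at 48h and 122699 to 351818 in pre_PH. The ratio of geometric means was 1.02, and the exact two-sided permutation test did not separate the groups (p = 0.929, adjusted p = 0.929 over 4 measures). The 28 possible splits of 2 against 6 libraries allow no p below 0.0357. In bulk tissue, fewer cells of a type and less RNA per cell cannot be told apart, here and in all results that follow. No preparation batch is in the labels, so a preparation shared by the 2 libraries at 48h cannot be told apart from the time.

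When every library was reduced to 120844 piRNA reads, 328 and 330 piRNAs were expected to be detected at 48h, and 110 to 192 in pre_PH (mean 143 ± 31.7, SD, n = 6). The ratio was 2.35 (exact permutation p = 0.0357, adjusted p = 0.0714), the smallest p the design allows before adjustment. With a requirement of 2 reads at that depth the numbers were 219 and 189 at 48h, and 66.8 to 128 in pre_PH. As listed, 82 and 104 piRNAs had at least 10 reads at 48h and 46 to 61 in pre_PH, and 109 and 173 had a single read at 48h and 34 to 76 in pre_PH. The 48h libraries thus lay above all 6 pre_PH libraries both among piRNAs seen once and among those seen often.

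The effective number of piRNAs, the exponential of the Shannon entropy of the shares, counts how many equally abundant piRNAs would give the same evenness. It was 11.3 and 11.6 at 48h and 5.92 to 9.11 in pre_PH (7.42 ± 1.30, SD, n = 6), a ratio of 1.56 (exact permutation p = 0.0357, adjusted p = 0.0714). The 3 most abundant piRNAs of each library held 55.1% and 57.4% of its piRNA reads at 48h and 64.9 to 76.5% in pre_PH. The 10 most abundant of each library held 92.2% and 91.3% at 48h, inside the pre_PH range of 88.7 to 95.7% (exact permutation p = 0.607, adjusted p = 0.810). The 20 most abundant held 96.95% and 97.24% at 48h and 97.76 to 99.25% in pre_PH. The groups were thus separate for the 3 and the 20 leading names and overlapped for the leading 10. The listed names covered 99.3% and 99.2% of the mapped piRNA reads implied by the deposited percentages at 48h, and 99.8 to 99.9% in pre_PH. The part of that gap in the numbers detected was not tested.

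**Figure D1:**
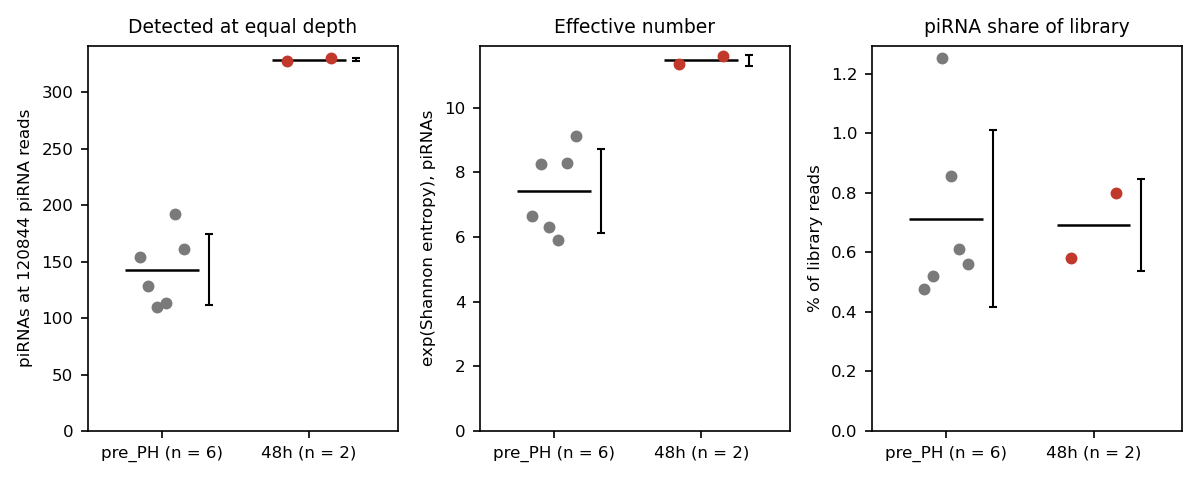
Each point is 1 library: piRNAs detected at 120844 piRNA reads, effective number of piRNAs, and piRNA reads as a percent of library reads, with group means as lines and SD as bars (pre_PH n = 6, 48h n = 2). Both 48h points lie above all pre_PH points in the first pair of panels (328 and 330 against 110 to 192, and 11.3 and 11.6 against 5.92 to 9.11) and inside their range in the last.

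Single piRNAs were then tested with edgeR's quasi-likelihood test on the read counts, with TMM scaling, at a Benjamini-Hochberg adjusted p under 0.05. The filter on low counts left 80 piRNAs to test, and the 568 others held 0.601% and 0.453% of piRNA reads at 48h and 0.0435 to 0.192% in pre_PH. Of the 80, 27 were higher at 48h (33.8%) and 10 were lower (12.5%), and 40 had an unadjusted p under 0.05. The pair of 48h libraries exceeded all 6 pre_PH libraries for 28 of the 80 (35%) and below all 6 for 15 (18.8%), in counts per 1000000 TMM-scaled piRNA reads (CPM). The filter asks for reads in as many libraries as the smallest group holds, so a piRNA could enter through the 48h libraries alone. With the filter applied to the 10 other libraries, a choice made after seeing the data, 62 piRNAs were tested, and 13 were higher (21%) and 6 lower (9.68%). Of the 27 piRNAs called higher, 11 were among those 62, and all 11 passed there too. All 10 called lower were among the 62, and 6 of them passed. The median log2 fold change of piRNAs tested in both fits was higher by 0.53 with that filter.

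The balance of rises and falls depended on scaling. The median log2 fold change of the 80 was 0.09 with TMM. Scaling to the total of piRNA reads moved it to 0.77 and gave 31 rises and 2 falls. Upper-quartile scaling moved it to 0.78 and gave 33 rises and 5 falls. With the authors' library total it was 0.83, with 33 rises and 8 falls. All 27 rises passed under each of these scalings, and of the 10 falls 2, 5 and 8 passed. Single libraries also moved the counts, and with TMM they moved the scale of the same 80. Their median log2 fold change became -0.93 on removal of 48h replicate 1 (0.90 with the authors' library total). Removal of 48h replicate 2 gave -0.63. For 168h replicate 1 and 24h replicate 2, outside the comparison, it became -1.11 and -0.99. For 168h replicate 2 and 24h replicate 1 it was 0.21 and -0.18. Counts from these fits thus depend on scaling too. Without 48h replicate 1 there were 4 rises and 15 falls among 88 tested with TMM, but 32 rises and 2 falls with the authors' library total, which kept 25 of the 27 rises and 2 of the 10 falls. Without 48h replicate 2 there were 19 and 10 among 98. Leaving out 168h replicate 2 gave 43 rises and 9 falls among 108. Leaving out 168h replicate 1 gave 19 and 29 among 108, leaving out 24h replicate 2 gave 19 and 24, and leaving out 24h replicate 1 gave 34 and 15. Without pre_PH replicate 6 there were 20 rises and 15 falls among 80.

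**Figure D2:**
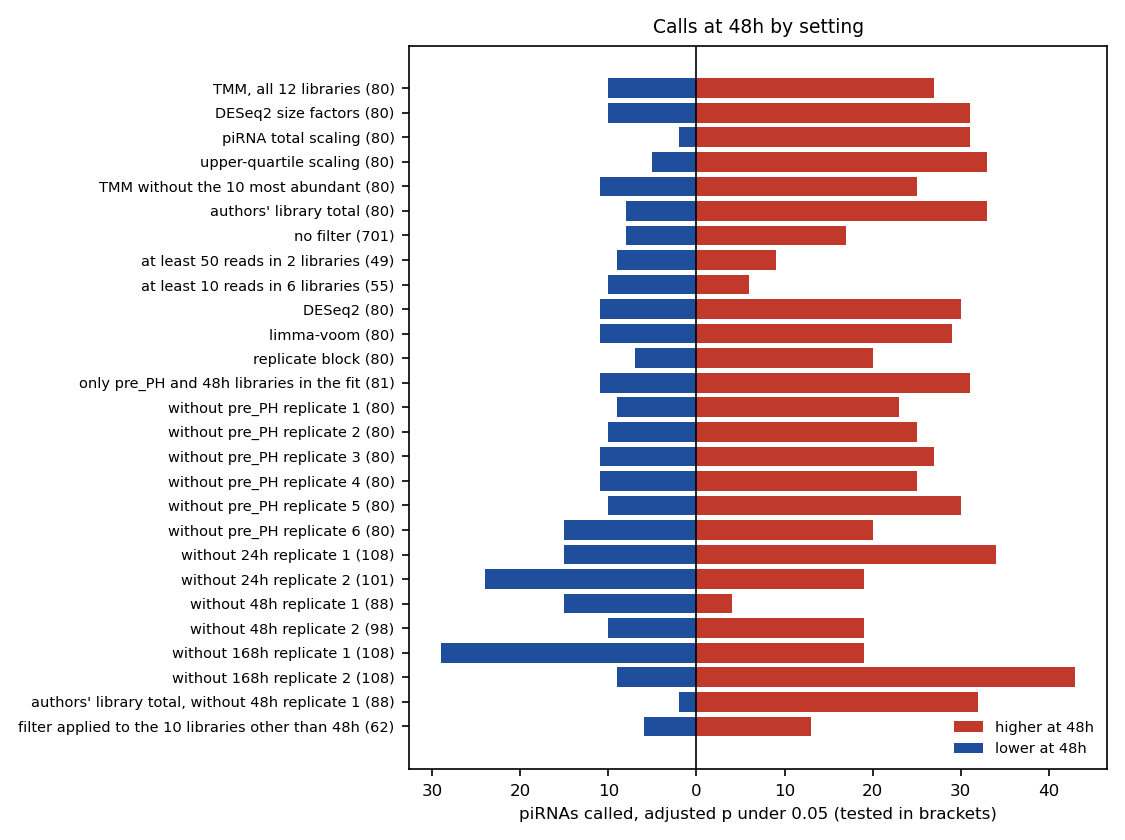
Bars give the number of piRNAs called higher (right) and lower (left) at 48h in the reported fit, at the top with 27 and 10, and under each other scaling, filter, tool and set of libraries, with the number tested in brackets. The fewest rises, 4, came without 48h replicate 1 (32 with the authors' library total), and the fewest falls, 2, with piRNA total scaling and with the authors' library total without 48h replicate 1.

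Other scales were set beside the TMM scale, because TMM values are relative to the other piRNAs. These were each piRNA's share of listed piRNA reads and its reads per 1000000 library reads (RPM). Of the 27 piRNAs called higher, 26 had both 48h libraries above all 6 pre_PH libraries on all 3 scales. Over the 80 tested, both 48h libraries lay above all 6 for 33 (41.2%) by share and for 32 (40%) by RPM, each scale taken alone. On all 3 scales at once, 31 of the 80 were without overlap, above or below. Of the 10 called lower, both 48h libraries lay below all 6 pre_PH libraries for 9 by TMM CPM, for 8 by RPM and for 3 by share, against 4 (5%) of the 80 by share and 8 (10%) by RPM. The rises were thus read the same way on each scale with 1 exception, and most falls overlapped the sham libraries when taken as a share of piRNA reads. The calls were made from these same reads, so the other scales show dependence on scaling and add no separate support.

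**Figure D3:**
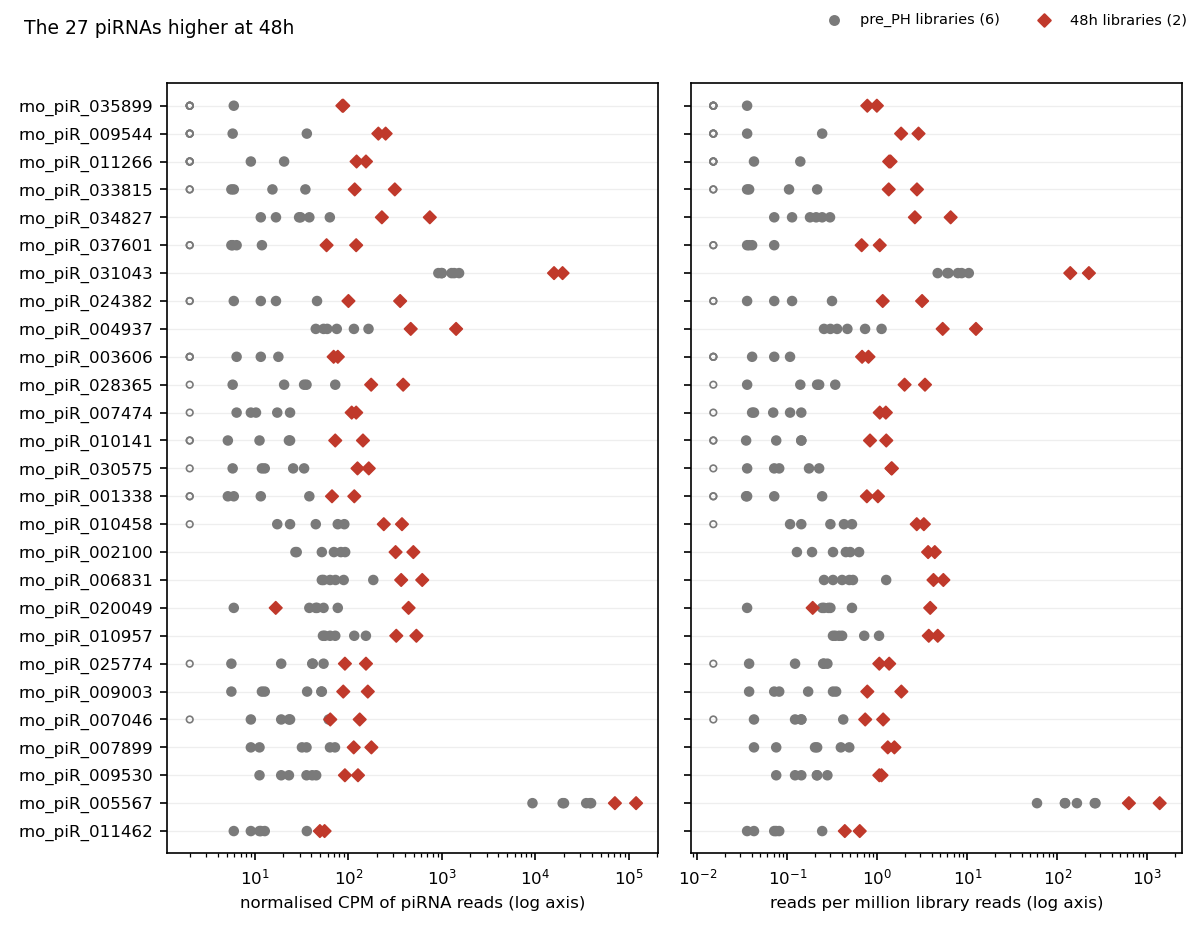
Each row is 1 of the 27 piRNAs called higher at 48h, with each library as a point in normalised CPM (left) and in RPM (right), both on log axes. Open circles at the left edge are pre_PH libraries with 0 reads, and in 26 rows both 48h points lie to the right of all 6 pre_PH points, rno_piR_020049 being the exception.

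Among abundant rises, rno_piR_031043 was the one with the lowest p. It had 2881 and 7039 reads at 48h, and in pre_PH 110 at the lowest, 190.5 at the median and 298 at the highest. In RPM this was 139 and 224 at 48h and 4.67 to 10.3 in pre_PH, and as a share of piRNA reads 2.38% and 2.80% and 0.0478 to 0.169%. The groups did not overlap on any scale, and the 48h libraries differed from each other by far less than from pre_PH. Its log2 fold change was 3.91 ± 0.47 (SE, edgeR adjusted p = 1.63e-06). It was called in all 26 alternative fits, the only one of the 27 to be tested and called in all, with an adjusted p of 0.000432 at most. At 24h it had 108 and 50 reads, both below the lowest pre_PH library, and at 168h 201 and 214, inside the pre_PH range of reads, though in normalised CPM 168h replicate 1 (1889) lay above the highest pre_PH library (1525).

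The largest rise in reads was that of rno_piR_005567, one of the 10 most abundant names, with 12911 and 43064 reads at 48h. In pre_PH it had 1465 reads at the lowest, 3647 at the median and 7489 at the highest. In RPM the values were 622 and 1368.5 at 48h and 59.3, 143 and 265 in pre_PH. The groups did not overlap, and 48h replicate 2 had 1.68 times the normalised CPM of replicate 1. The log2 fold change was 1.82 ± 0.70 (SE, edgeR adjusted p = 0.0381), and it was called in 13 of 26 alternative fits, where the adjusted p reached 0.508. At 168h it had 4799 and 61011 reads, so that the only library with more reads of it than those at 48h was 168h replicate 2.

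A middle group of rises had at least 10 reads in a pre_PH library. Besides the pair above it held rno_piR_004937, rno_piR_002100, rno_piR_006831, rno_piR_010957, rno_piR_010458, rno_piR_020049, rno_piR_009003, rno_piR_007899 and rno_piR_007046. The clearest by p, rno_piR_004937, had 258 and 167 reads at 48h and 6, 11.5 and 32 at the lowest, median and highest in pre_PH. Its log2 fold change was 3.44 ± 0.56 (SE, edgeR adjusted p = 7.85e-05). The groups did not overlap, though replicate 2 had 0.327 times the normalised CPM of replicate 1, and the call was lost in 1 of 26 alternative fits, that without 48h replicate 1 with TMM (adjusted p = 0.0502, the highest of all).

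Reads of rno_piR_002100 were 90 and 115 at 48h and 3 to 18 (median 10) in pre_PH. For rno_piR_006831 they were 112 and 132 against 6 to 36 (median 11.5), and for rno_piR_010957 97 and 117 against 8 to 30 (median 10). The log2 fold changes of these 3 were 2.76 ± 0.55, 2.49 ± 0.53 and 2.30 ± 0.54 (SE, edgeR adjusted p = 0.000501, 0.000848 and 0.00145). In RPM they stood at 3.65 to 5.40 at 48h, and the highest pre_PH value among them was 1.25. All 3 were listed in every pre_PH library, and all 3 lost their call without 48h replicate 1 with TMM, where the highest adjusted p of the 3 was 0.127. For rno_piR_010458 there were 68 and 86 reads at 48h and 0 to 15 (median 6) in pre_PH. Its log2 fold change was 2.86 ± 0.74 (SE, edgeR adjusted p = 0.00319), and with TMM the call was lost without either 48h library.

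Smaller rises in the same group were nearer to the sham range. rno_piR_009003 had 16 and 58 reads at 48h and 1 to 10 in pre_PH, rno_piR_007899 had 32 and 41 against 1 to 14, and rno_piR_007046 had 24 and 23 against 0 to 12. Their log2 fold changes ran from 1.90 to 2.13, with SE of 0.74 to 0.82 (edgeR adjusted p = 0.0225, 0.0384 and 0.0482), and with TMM each was lost without 48h replicate 1 and without 48h replicate 2. Their 48h values lay above pre_PH in normalised CPM, by little for rno_piR_007046 (63.8 in the lower 48h library and 61.4 in the highest pre_PH library). Of the alternative fits that tested them, 17 of 23 called rno_piR_009003, 16 of 24 rno_piR_007899 and 12 of 23 rno_piR_007046. With the filter on the 10 other libraries rno_piR_007899 was tested and called, but rno_piR_009003 and rno_piR_007046 were not tested. The p-values of rno_piR_009003 and rno_piR_007046 are thus not independent of the filter, which they passed through their 48h reads.

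The call of rno_piR_020049 rested on 1 library. It had 80 reads in 48h replicate 1 and 6 in replicate 2, and 1, 7 and 15 at the lowest, median and highest in pre_PH. The groups overlapped, since replicate 2, at 16.6 normalised CPM, lay inside the pre_PH range of 5.92 to 76.8. Its log2 fold change was 2.32 ± 0.78 (SE, edgeR adjusted p = 0.0207), and without 48h replicate 1 it was -2.23. Few distinct read sequences stood behind it in any library, 2 and 3 at 48h and 1 to 2 in pre_PH.

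The other 16 rises had under 10 reads in every pre_PH library, so they were rare in sham-operated liver. Together they held 0.50% and 0.260% of piRNA reads at 48h and 0.0118 to 0.0369% in pre_PH. For a pre_PH library with no read of a name, the upper limit is 3 reads, or 0.104 to 0.127 RPM. The rarest was rno_piR_035899, with 16 and 31 reads at 48h and 1 read in all 6 pre_PH libraries together, in replicate 3. Its log2 fold change was 5.66 ± 0.94 (SE, edgeR adjusted p = 7.85e-05). The ratio of pooled rates, computed apart from that fit, was 85.4. Its 95% counting interval of 14.6 to 3442 covers counting error only, without the spread between libraries. The 48h libraries stood at 87.9 and 86.0 normalised CPM. This name passed the filter through its 48h reads and was not tested when the filter used the 10 other libraries, so its p is not independent of that choice.

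Reads of rno_piR_011266 were 28 and 44 at 48h, and in pre_PH 0 in 4 libraries and 1 and 4 in the others. For rno_piR_009544 there were 38 and 90 reads at 48h, and 0 in 4 pre_PH libraries and 7 and 1 in the others. Like rno_piR_035899, both kept their call without 48h replicate 1. With the filter on the 10 other libraries rno_piR_009544 was tested and called, and rno_piR_011266 was not tested. The log2 fold changes were 4.59 ± 0.86 and 4.76 ± 0.91 (SE, edgeR adjusted p = 0.000315 and 0.000351). The few reads in pre_PH make such values depend on small counts. At 168h rno_piR_009544 had 13 and 6 reads, and at 24h 10 and 3.

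A further set was higher in 48h replicate 1 than in replicate 2 by over 2-fold in normalised CPM. rno_piR_034827 had 135 and 82 reads at 48h and 2 to 7 in pre_PH, with 742 and 228 normalised CPM at 48h and 11.5 to 63.1 in pre_PH (log2 fold change 3.95 ± 0.65, SE, edgeR adjusted p = 7.85e-05). rno_piR_033815 had 57 and 42 reads against 0 to 6, rno_piR_024382 65 and 36 against 0 to 9, rno_piR_028365 70 and 63 against 0 to 8, and rno_piR_037601 22 and 21 against 0 to 2. None of these 5 names was tested with the filter on the 10 other libraries. They passed the filter through their 48h reads, so their p-values are not independent of that choice. All 5 lay above pre_PH in both 48h libraries, and none of the 5 kept its call without 48h replicate 1 with TMM, while all 5 kept it with the authors' library total. Of all 27 rises, 22 had the higher normalised CPM in 48h replicate 1, and 8 differed by over 2-fold between the 48h libraries.

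The remaining rare rises had 9 to 45 reads in each 48h library. They were rno_piR_007474 (22 and 39 reads at 48h, 0 to 4 in pre_PH), rno_piR_030575 (30 and 45, 0 to 6), rno_piR_003606 (14 and 25, 0 to 3), rno_piR_010141 (26 and 26, 0 to 4), rno_piR_001338 (21 and 24, 0 to 6), rno_piR_025774 (28 and 33, 0 to 8), rno_piR_009530 (23 and 33, 2 to 8) and rno_piR_011462 (9 and 20, 1 to 7). Their 48h libraries all lay above the 6 pre_PH libraries in normalised CPM, in share and in RPM. Their log2 fold changes ran from 1.78 for rno_piR_011462 to 3.44 for rno_piR_003606 (edgeR adjusted p from 0.00145 for rno_piR_007474 to 0.0482 for rno_piR_011462). Of these 8, only rno_piR_001338 was tested with the filter on the 10 other libraries. The others passed the filter through their 48h reads, so their p-values are not independent of that choice. Of the alternative fits that tested it, rno_piR_011462 was called in 9 of 23. rno_piR_025774 and rno_piR_009530 were called in 15 of 23 each, and rno_piR_010141 in 19 of 23. For rno_piR_007474 and rno_piR_003606 it was 21 of 23, for rno_piR_030575 22 of 23 and for rno_piR_001338 21 of 24. Without 48h replicate 1 none of these 8 passed with TMM, and all 8 passed with the authors' library total. Of the 27 rises, 4 passed with TMM without 48h replicate 1, and 16 without 48h replicate 2.

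By mean share of piRNA reads over the 8 libraries, 1 fall was at 1% or more and 4 were at 0.1 to 1%. A further 4 were at 0.01 to 0.1%, and 1 was below. All 10 were listed in all 8 libraries. A name with hardly any reads in pre_PH could not have been called lower. The piRNAs called lower held 5.11% and 3.33% of piRNA reads at 48h and 3.61 to 29.2% (median 17.2%) in pre_PH. rno_piR_000753 had the lowest p, with 8 and 9 reads at 48h and 37, 42 and 64 at the lowest, median and highest in pre_PH. In RPM it was at 0.386 and 0.286 at 48h and 1.46 to 2.28 in pre_PH. The groups did not overlap on any scale, its log2 fold change being -3.07 ± 0.72 (SE, edgeR adjusted p = 0.00153), and it was called in all 26 alternative fits, with an adjusted p of 0.0221 at most.

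The fall of rno_piR_000746 was of similar size in a more abundant name. It had 145 and 674 reads at 48h, and 931, 1435 and 3442 at the lowest, median and highest in pre_PH. In RPM it stood at 6.99 and 21.4 at 48h and 39.2 to 123 in pre_PH, and its share was 0.120% and 0.268% against 0.313 to 2.19%. The groups did not overlap on any scale, though replicate 2 had 2.35 times the normalised CPM of replicate 1. The log2 fold change was -2.97 ± 0.75 (SE, edgeR adjusted p = 0.00291), and 25 of 26 alternative fits called it. rno_piR_001825 was the other fall without overlap on all 3 scales, with 11 and 23 reads at 48h against 34 to 85 in pre_PH (log2 fold change -2.40 ± 0.70, SE, edgeR adjusted p = 0.00784). Its call was lost with piRNA total scaling.

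The most abundant of the falls was rno_piR_004288, which with rno_piR_005567 made up the 2 calls among the 10 most abundant names. It had 5371 and 6963 reads at 48h, and 10016, 23308 and 33934 at the lowest, median and highest in pre_PH. In RPM the values were 259 and 221 at 48h and 357 to 1272 in pre_PH, without overlap. As a share of piRNA reads, 4.44% and 2.77% at 48h overlapped the pre_PH range of 2.85 to 26.6%, because 48h replicate 1 lay above the lowest pre_PH library. The log2 fold change was -2.46 ± 0.85 (SE, edgeR adjusted p = 0.0225), and 21 of 26 alternative fits called it. The call was lost with piRNA total scaling, with upper-quartile scaling and with the filter on the 10 other libraries. It was also lost without 48h replicate 2, and with the authors' library total without 48h replicate 1.

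Another 3 falls were of middle abundance. rno_piR_000562 had 104 and 123 reads at 48h and 235 to 384 in pre_PH, rno_piR_000324 194 and 217 against 269 to 879, and rno_piR_032799 329 and 337 against 404 to 1085. In RPM the 48h libraries of all 3 lay below all pre_PH libraries, at 5.01 and 3.91, 9.35 and 6.90, and 15.9 and 10.7, against lowest pre_PH values of 9.61, 11.4 and 17.2. As shares of piRNA reads all 3 overlapped pre_PH. Their log2 fold changes were -2.06 ± 0.58, -2.02 ± 0.60 and -1.91 ± 0.59 (SE, edgeR adjusted p = 0.00656, 0.00839 and 0.0118), and none of the 3 passed with piRNA total scaling.

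The last 3 falls rested on few reads. rno_piR_000575 had 6 and 7 reads at 48h and 6 to 65 in pre_PH, rno_piR_002302 10 and 15 against 15 to 32, and rno_piR_000127 1 and 10 against 4 to 29. rno_piR_000127 was the fall whose groups overlapped in normalised CPM, with 5.49 and 27.8 at 48h and 25.4 to 148 in pre_PH. In RPM rno_piR_000575 overlapped too, with 0.289 and 0.222 at 48h and 0.255 to 2.26 in pre_PH. Log2 fold changes of the 3 were -2.60 ± 0.83, -1.65 ± 0.62 and -2.48 ± 0.85 (SE, edgeR adjusted p = 0.0142, 0.0326 and 0.0224). None of the 3 passed with piRNA total scaling or with upper-quartile scaling. rno_piR_000575 and rno_piR_002302 also lost their call with the filter on the 10 other libraries. None of the 10 falls changed sign in any alternative fit that tested it.

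**Figure D4:**
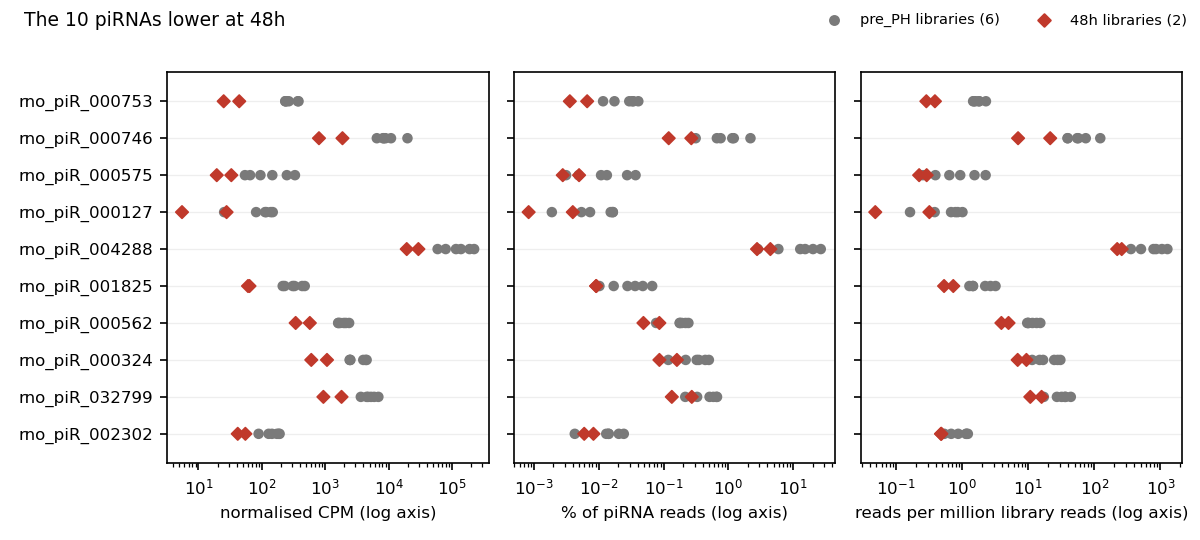
Each row is 1 of the 10 piRNAs called lower at 48h, with each library as a point in normalised CPM, in percent of piRNA reads and in RPM, all on log axes. The 48h points lie left of all 6 pre_PH points in 9 rows by CPM, 3 by percent (rno_piR_000753, rno_piR_000746 and rno_piR_001825) and 8 by RPM.

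Most of the 10 most abundant names were not called. rno_piR_000685, the leading name in pre_PH, had 28115 and 62680 reads at 48h and 48798 to 161081 in pre_PH, or 1355.5 and 1992 RPM against 1877 to 5736, so that in RPM 48h replicate 2 lay inside the pre_PH range. By share, 23.3% and 24.9% at 48h lay below all pre_PH libraries (39.3 to 54.8%), and the groups did not overlap in normalised CPM either. The log2 difference of -1.69 ± 0.85 (SE) missed the threshold (edgeR adjusted p = 0.112), and it was negative in all 26 alternative fits, of which 3 called it. rno_piR_005901 had 25435 and 18420 reads at 48h and 5002 to 19273 in pre_PH, and a share of 21.0% in 48h replicate 1, the highest of the 8 libraries, and of 7.32% in replicate 2, inside the pre_PH range of 2.11 to 10.95% (edgeR adjusted p = 0.409). It was counted from 1 distinct read sequence in every library. rno_piR_005900 had 10968 and 12361 reads at 48h and 4881 to 14263 in pre_PH, and rno_piR_005359 2974 and 1419 against 1550 to 3090 (edgeR adjusted p = 0.895 and 0.437).

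The other 4 names among the 10 varied widely within pre_PH. Reads of rno_piR_005556 ran from 1083 to 68989 in pre_PH and were 13033 and 38654 at 48h. Those of rno_piR_005787 ran from 146 to 39167 with 4038 and 17301 at 48h, those of rno_piR_008639 from 607 to 15824 with 5656 and 14262, and those of rno_piR_000030 from 193 to 17827 with 1560 and 9035. In all 4 the lowest pre_PH library was replicate 1 and the highest was replicate 3, and the 48h libraries lay between them in reads. As a share of piRNA reads, rno_piR_008639 stood at 4.68% and 5.67% at 48h, above all 6 pre_PH libraries (0.476 to 4.50%), while the other 3 names overlapped. The edgeR adjusted p was 0.683, 0.565, 0.888 and 0.546, and the sign of each log2 fold change differed between alternative fits.

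Calls were unevenly spread over abundance. With names grouped by their mean share of piRNA reads over the 8 libraries, 12 names held at least 1%, and 1 was called higher and 1 lower. Of 13 names with 0.1 to 1%, 1 was higher and 4 were lower, and of 27 with 0.01 to 0.1%, 8 were higher and 4 lower. Below 0.01% there were 596 names, of which 28 were tested, 17 being higher and 1 lower. Such rare names could enter the test through their 48h reads, so their count of rises is a description. The rare class as a whole, tested or not, held 1.08% and 0.789% of piRNA reads at 48h and 0.0796 to 0.336% in pre_PH, without overlap.

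The presence of names showed the same rarity. Of the 648 names, 69 were listed in all 8 libraries and held 98.96% and 99.31% of piRNA reads at 48h and 99.77 to 99.95% in pre_PH. At 48h and in at least 1 pre_PH library 266 names were listed, and 113 were listed in pre_PH alone, with at most 5 reads in a library and 99 of them in a single library. The 269 names listed at 48h and in no pre_PH library had at most 9 reads in a library, and 150 of them had 1 read in all. Of the 269, 54 were in both 48h libraries, led by rno_piR_010734 with 4 and 6 reads and rno_piR_019288 with 8 and 2, named after their values were seen. The 269 made up 0.161% and 0.130% of piRNA reads at 48h, and 42 of them were also listed at 24h or 168h. At this depth a name with 0 reads in pre_PH cannot be called absent there.

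The deposited tables also count the distinct read sequences behind each piRNA's reads. Over all listed piRNAs there were 2159 and 3057 distinct sequences at 48h and 1192 to 1719 in pre_PH, and 56.0 and 82.3 reads per distinct sequence at 48h and 90.2 to 211 in pre_PH. For the 16 rare rises the distinct sequences summed to 185 and 263 at 48h and 15 to 40 in pre_PH, with 3.27 and 2.49 reads each at 48h and 1.43 over all pre_PH libraries. Their added reads came with more distinct sequences, at few reads per sequence on average. These names were called for more reads at 48h, and distinct sequences cannot outnumber reads. The reads were 604 and 654 at 48h and 221 over all pre_PH libraries. Both differences are thus tied to the choice of names and are a description. How the reads were spread over single sequences was not examined. For rno_piR_031043 the distinct sequences were 27 and 30 at 48h and 19 to 26 in pre_PH, while reads per distinct sequence were 107 and 235 at 48h and 8.82 over pre_PH. The number of distinct sequences of this name was thus slightly above pre_PH in both 48h libraries, and the reads per sequence were higher by a larger factor. The 10 falls had 87 and 101 distinct sequences at 48h and 97 to 127 in pre_PH, with 71.0 and 83.0 reads each at 48h and 222 over pre_PH.

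**Figure D5:**
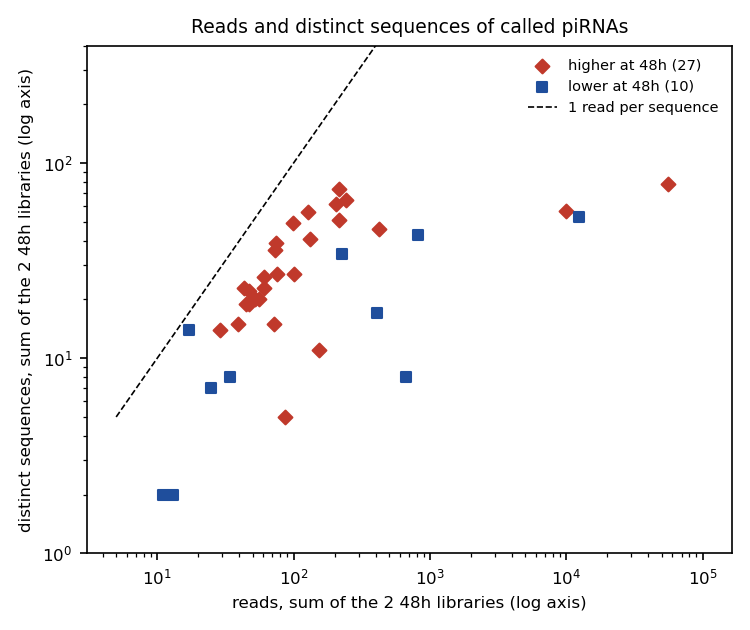
Each point is 1 of the 37 called piRNAs, with its reads summed over the 2 libraries at 48h on the x axis and its distinct read sequences, summed in the same way, on the y axis, both log axes, and a dashed line at 1 read per sequence. The 2 rises farthest right are rno_piR_031043 and rno_piR_005567, well below the line, while most rises with under 100 reads lie nearer to it, rno_piR_020049 with 5 sequences being an exception.

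At the other times, which are compared with the same pre_PH libraries, few of these piRNAs were called. The fit called 1 piRNA higher at 24h (1.25% of 80) and 5 at 168h (6.25%). The one at 24h was rno_piR_020049, with 104 and 43 reads there and a log2 fold change of 3.68 (edgeR adjusted p = 0.00649). At 168h rno_piR_001338, with 12 and 16 reads, and rno_piR_005567 were among the 5, with log2 fold changes of 3.17 and 2.75 (edgeR adjusted p = 0.0277 for both). The median log2 fold change of the 27 rises was 3.14 at 48h, 0.24 at 24h and 0.35 at 168h, against 0.09, -0.22 and 0.33 over all 80. Both libraries lay inside the pre_PH range for 15 of the 27 at 24h and for 15 at 168h, beside 43 and 30 of all 80.

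The median log2 fold change of the 10 falls was -2.43 at 48h, -0.42 at 24h and 0.84 at 168h, and both libraries lay inside the pre_PH range for 4 of them at 24h and 0 at 168h. rno_piR_002302 was called higher at 168h, with 77 and 81 reads there, 10 and 15 at 48h and 15 to 32 in pre_PH (log2 fold change 1.91, edgeR adjusted p = 0.0277). The differences between times were not tested, and the members were chosen by their 48h values.

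The 5 uncalled piRNAs with the lowest p were rno_piR_005296, rno_piR_005791, rno_piR_007198, rno_piR_013244 and the abundant rno_piR_000685. rno_piR_005296 had 10 and 19 reads at 48h and 1 to 6 in pre_PH, with no overlap in normalised CPM (54.9 and 52.7 against 5.58 to 30.7), and missed the threshold narrowly (log2 fold change 1.68 ± 0.70, SE, edgeR adjusted p = 0.0525). rno_piR_007198 had 13 and 34 reads against 1 to 9, and rno_piR_013244 20 and 13 against 0 to 8 (edgeR adjusted p = 0.0659 and 0.109). rno_piR_005791 had 74 and 106 reads at 48h and 74 to 245 in pre_PH (edgeR adjusted p = 0.0599). In normalised CPM its groups did not overlap (407 and 294 at 48h against 470 to 1425), but they did by share and in RPM. The piRNAs just inside the threshold were rno_piR_011462 and rno_piR_007046, both with an edgeR adjusted p of 0.0482.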

How the data were processed

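Total RNA was extracted with TRIzol and made into libraries with the Illumina TruSeq small RNA kit for sequencing on a HiSeq instrument, per the labels' protocols. The submitters' processing notes name DESeq 1.14.0, CASAVA 1.8, cutadapt and the build rn4, without roles. How reads were aligned, and how a read matching several names was counted, is not given in the sources used here, so near-identical names can share or split reads. The deposited tables give read counts and counts of distinct read sequences per piRNA, per the file headers not normalised. The percent columns that the authors deposited relate each count to the library's reads and to reads mapped to piRNAs, per the file headers. The ratio of count to percent gave 1 constant per library, taken as the library total from the column's name. Positions and sequences of piRNAs were not used here.

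The members, lists and tests were chosen with earlier results of these data known. All 12 libraries in 4 groups entered an edgeR 4.0.16 fit of the counts (R 4.3.3, filterByExpr, TMM scaling, quasi-likelihood F-test). The biological coefficient of variation was 0.591, and TMM factors were 1.51 and 1.43 at 48h and 0.480 to 1.40 in pre_PH. A piRNA was called at an adjusted p under 0.05, over 80 piRNAs. Named were every called piRNA, the 10 with the highest mean share over the 8 libraries, and the 5 uncalled with the lowest p. Alternatives changed the scaling, filter, tool (DESeq2 1.42.0, limma-voom from limma 3.58.1) or libraries, 26 in all. Per-library measures were compared on a log2 scale by exact two-sided permutation tests. Numbers detected at equal depth are exact expectations at 120844 reads. Counting intervals (95%) and the floor of 3 reads cover counting error only. No replicate pair agreed within sampling noise in chi-square tests of counts. The edgeR fit was tried on simulated counts with known changes, and the outcome is not reported here.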

Additional observations from a re-analysis of the deposited data

Results flagged for a closer look

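Among the 6 pre_PH libraries, 9 of 53 sets of values checked had 1 library far from the others. Some sets hold few reads, and a single read among libraries without any is always flagged. The number flagged therefore cannot be compared with a rate expected by chance, and no excess is claimed. Values are in normalised CPM. In pre_PH replicate 5 the highest value was 35.8 for rno_piR_009544, 184 for rno_piR_006831, 46.1 for rno_piR_024382 and 35.8 for rno_piR_011462. In pre_PH replicate 3 it was 5.92 for rno_piR_035899, the single read of that name, 232050 for rno_piR_005787 and 105620 for rno_piR_000030. In pre_PH replicate 4 it was 38.1 for rno_piR_001338, and in pre_PH replicate 6 it was 19834 for rno_piR_000746. Both 48h libraries lay above the stated value for the 6 piRNAs called higher, and below all pre_PH values for rno_piR_000746.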

How the results depend on the processing

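Against 27 rises and 10 falls, 19 rises and 5 falls had an adjusted p under 0.01. The rises numbered 17 with no filter, 9 with at least 50 reads in 2 libraries, 6 with at least 10 reads in 6 libraries and 13 with the filter on the 10 other libraries, fewer piRNAs being tested in the last 3. The falls numbered 2 with piRNA total scaling, 5 with upper-quartile scaling, 2 with the authors' library total without 48h replicate 1 (beside 32 rises) and 6 with the filter on the 10 other libraries, and the cause was not tested. With single libraries left out the rises ran from 4 to 43 and the falls from 9 to 29. Pre_PH numbers follow accession order, so samples share only a number. With the replicate block 20 rises and 7 falls were called (20 and 6 of those reported), and deviations of the number 1 and number 2 libraries correlated at 0.347 and 0.143 over 80 piRNAs.

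Among named piRNAs, rno_piR_020049 turned to a log2 fold change of -2.23 without 48h replicate 1 and -0.51 with the authors' library total in addition, and rno_piR_013244 to -0.13 without 48h replicate 1. With single libraries left out they ran from -2.23 to 2.85 and from -0.13 to 1.93. The log2 ratio of the piRNA share of library reads, 0.02 in full, ran from -0.20 to 0.25 with single libraries left out. Taken over the 3 most abundant piRNAs in place of 10, the log2 ratio of the leading share was -0.34 (exact permutation p = 0.0357, adjusted p = 0.0476). Its unadjusted p was the smallest the design allows, as for the numbers detected and the effective number. The lower adjusted p arose because more of the 4 measures then lay at that smallest p. It is no stronger evidence than theirs. Only 2 libraries at 48h limit the precision, and rare names also rest on few reads.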
